A study of Mus musculus with 6 samples.

Results

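The genes that write and erase DNA methylation were compared between mouse embryonic stem (ES) cells with and without a working copy of Tex19.1. They are the DNA methyltransferase genes Dnmt1, Dnmt3a and Dnmt3b, the cofactor genes Uhrf1 and Dnmt3l, the dioxygenase genes Tet1, Tet2 and Tet3, and the glycosylase gene Tdg. They were taken as the rows with these gene symbols, and all 9 had a row among the 10128 genes of the authors' deposited table. RNA sequencing was done on 3 libraries of Tex19.1-/- cells and 3 libraries of Tex19.1+/- cells. The cells of both genotypes descend from E14Tg2a, an ES line of 129/Ola background, and were grown at passages 12 to 18 on gelatin in serum with leukaemia inhibitory factor, a medium that keeps ES cells undifferentiated. The Tex19.1+/- cells that serve as the control carry a mutant allele themselves. The labels do not say whether the 3 libraries of a genotype come from separate clones or cultures, so the variation behind the p-values may be technical. How far the p-values rest on each gene's own spread between these libraries is unknown, since the form of the test is not given. The authors' deposited table gives, per gene, a p-value, an adjusted p, a log2 fold change between the genotypes and the mean level on the log2 scale of CPM, which is the read count scaled to the library total. It holds no value per library, so neither the depth of a library nor the spread between libraries can be printed, and whether the libraries of the genotypes overlap is unknown. Tex19.1 had the lowest log2 fold change of the authors' deposited table, -6.92 at a mean of 13.8 CPM; the direction of the fold changes, Tex19.1-/- over Tex19.1+/-, was read from this gene. The ES cell genes Pou5f1, Nanog and Sox2 stood at means of 1507 CPM, 416 CPM and 318 CPM in the authors' deposited table, with 96.0% to 99.6% of the genes below them.

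In mammals most CpG dinucleotides carry a methyl group on the cytosine. DNMT3A and DNMT3B place new methyl groups, helped in germ cells and ES cells by DNMT3L, a relative without catalytic activity; DNMT1 copies the pattern onto new DNA strands after replication, guided by UHRF1, which binds hemimethylated CpGs. The TET enzymes oxidise 5-methylcytosine to 5-hydroxymethylcytosine and further to formyl and carboxyl forms, which TDG cuts out so that base excision repair can restore an unmethylated cytosine. In mouse ES cells Tet1 and Tet2 are the main dioxygenase genes, Tet3 is best known from the zygote, and the de novo enzymes rise as naive cells move towards the epiblast state.

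The promoters of these genes differ in how much of the enzymes' own substrate they hold. The windows printed next, each 250 bases before to 50 bases after an annotated start from RefSeq (build GRCm38.p6), belong to the 3 members with the smallest p-values, with every CpG in capitals. The Dnmt3a window named internal lies 85.7 kb inside the gene, where a shorter transcript starts; reads of the gene's transcripts are summed in the authors' deposited table, so the starts cannot be told apart there.
Dnmt3a, upstream, chr12:3806910-3807209, plus strand: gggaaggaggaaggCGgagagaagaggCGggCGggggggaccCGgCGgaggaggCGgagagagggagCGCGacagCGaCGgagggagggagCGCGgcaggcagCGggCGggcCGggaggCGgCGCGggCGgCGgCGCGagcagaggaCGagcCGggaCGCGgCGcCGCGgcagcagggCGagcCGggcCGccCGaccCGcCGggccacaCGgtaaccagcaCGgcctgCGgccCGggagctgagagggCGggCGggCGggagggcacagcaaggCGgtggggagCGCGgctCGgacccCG
Dnmt3a, internal, chr12:3891494-3891793, plus strand: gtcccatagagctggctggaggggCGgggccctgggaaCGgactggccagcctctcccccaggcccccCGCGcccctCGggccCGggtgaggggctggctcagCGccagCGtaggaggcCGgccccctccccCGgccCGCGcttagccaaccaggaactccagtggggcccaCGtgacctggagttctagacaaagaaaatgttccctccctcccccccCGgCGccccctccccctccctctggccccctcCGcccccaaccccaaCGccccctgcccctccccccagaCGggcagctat
Tet2, chr3:133544341-133544640, minus strand: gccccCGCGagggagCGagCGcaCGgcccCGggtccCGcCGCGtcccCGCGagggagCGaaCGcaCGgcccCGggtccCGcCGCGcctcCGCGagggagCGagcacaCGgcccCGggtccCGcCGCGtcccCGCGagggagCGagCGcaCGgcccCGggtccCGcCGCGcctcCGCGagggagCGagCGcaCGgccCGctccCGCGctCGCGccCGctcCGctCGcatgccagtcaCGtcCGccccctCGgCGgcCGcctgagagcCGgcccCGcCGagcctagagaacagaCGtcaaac
Dnmt3l, chr10:78042037-78042336, plus strand: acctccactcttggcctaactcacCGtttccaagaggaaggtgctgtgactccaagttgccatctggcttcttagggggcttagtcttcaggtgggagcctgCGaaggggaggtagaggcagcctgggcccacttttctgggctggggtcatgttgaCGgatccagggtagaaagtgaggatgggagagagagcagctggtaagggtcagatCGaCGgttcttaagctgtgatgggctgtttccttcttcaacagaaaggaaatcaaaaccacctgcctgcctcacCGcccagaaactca

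The Tet2 window holds 57 CpGs, more than 99.8% of the 32851 RefSeq windows of the same length, whose median is 7. The upstream Dnmt3a window holds 47, an overlapping one at a second annotated start 46 and the internal one 18. The Dnmt3l window holds 6, and the other annotated starts of Dnmt3l hold 4 and 3, so all its windows lie below the median. The annotated starts of Dnmt1 hold 2, 12 and 33 CpGs and those of Uhrf1 hold 12 and 33. Dnmt3b has a window with 30 CpGs, Tdg one with 26, Tet3 one with 22 and Tet1 one with 17. Some of these windows also lie inside the gene, counted from its annotated start. The Tet1 window lies 21.7 kb inside, the Tet3 window 17.4 kb and the Dnmt1 window with 33 CpGs 7.265 kb.

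The maintenance genes share another feature. The E2F motif of replication genes was searched as TTTCGCGC, TTTCCCGC, TTTGGCGC and TTTGCCGC on both strands, without counting overlaps with other motifs apart, and 2.26% of all windows hold a match. Among the 9 genes a match was found in 1 window of Dnmt1, with 2 matches, and in 1 window of Uhrf1, with 1 match; they are shown here with the matches in capitals. A match is a stretch of letters and not a binding site.
Dnmt1, chr9:20952574-20952873, minus strand: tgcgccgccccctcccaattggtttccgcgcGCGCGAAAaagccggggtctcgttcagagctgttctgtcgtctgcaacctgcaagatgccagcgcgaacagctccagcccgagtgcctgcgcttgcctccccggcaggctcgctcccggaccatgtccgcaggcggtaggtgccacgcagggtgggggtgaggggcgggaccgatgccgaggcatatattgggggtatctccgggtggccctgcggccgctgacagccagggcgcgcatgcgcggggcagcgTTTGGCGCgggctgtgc
Uhrf1, chr17:56304063-56304362, plus strand: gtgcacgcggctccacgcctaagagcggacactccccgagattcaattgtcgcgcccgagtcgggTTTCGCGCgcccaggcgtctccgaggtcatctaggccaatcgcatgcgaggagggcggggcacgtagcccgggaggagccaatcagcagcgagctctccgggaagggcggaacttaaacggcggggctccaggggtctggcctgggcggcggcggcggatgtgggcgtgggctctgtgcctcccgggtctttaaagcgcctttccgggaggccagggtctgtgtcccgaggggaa

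Of the 9 genes, 3 were higher in Tex19.1-/- cells (Dnmt3a, Dnmt3b and Tdg), 3 were lower (Dnmt3l, Tet2 and Tet3), and 3 did not pass the threshold (Dnmt1, Uhrf1 and Tet1), which was set at 0.05 on the adjusted p of the authors' deposited table. The background is high: 51.7% of all genes passed that threshold, 25.2% as higher and 26.5% as lower, against which the 6 called genes of 9 are to be read. A 2-fold change was found for 0 of the 9 and for 1.46% of all genes. A change of at least 0.2 on the log2 scale that passed the threshold was found for 4 of the 9 (Dnmt3a, Dnmt3l, Tet2 and Tet3) and for 29.2% of all genes. The median log2 fold change of the 9 was -0.05, beside 0.00 for all genes, and their median size was 0.17, beside 0.11 for all genes. The intervals given with the values below are approximate 95% intervals, computed from the standard error that the authors' p-value implies for the deposited fold change under a normal distribution.

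**Figure D1:**
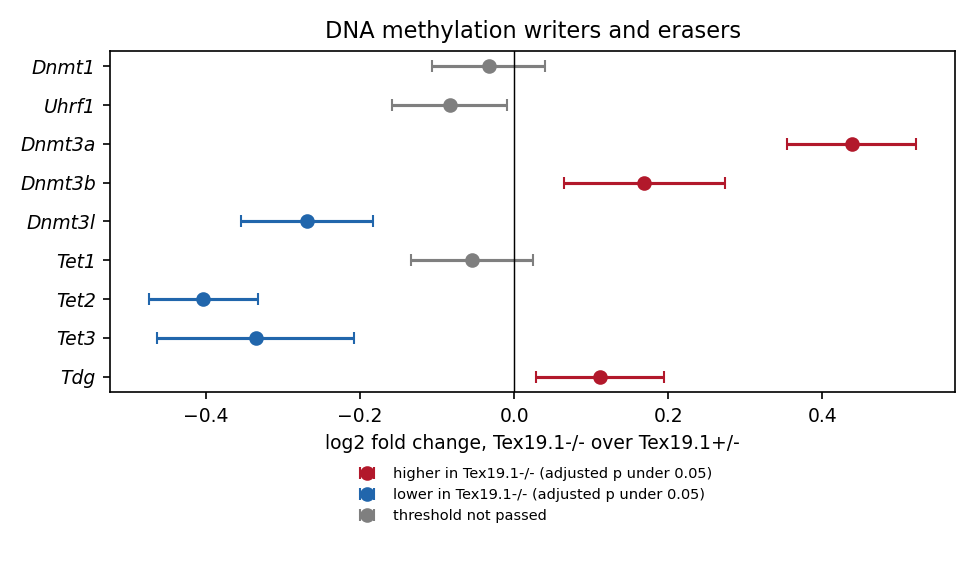
Log2 fold change of each gene, Tex19.1-/- over Tex19.1+/-, from the authors' deposited table (points), with the approximate 95% interval implied by the authors' p-value (bars). Dnmt3a lies highest at 0.44 and Tet2 lowest at -0.40, and the intervals of Dnmt1 and Tet1 include 0.

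**Figure D2:**
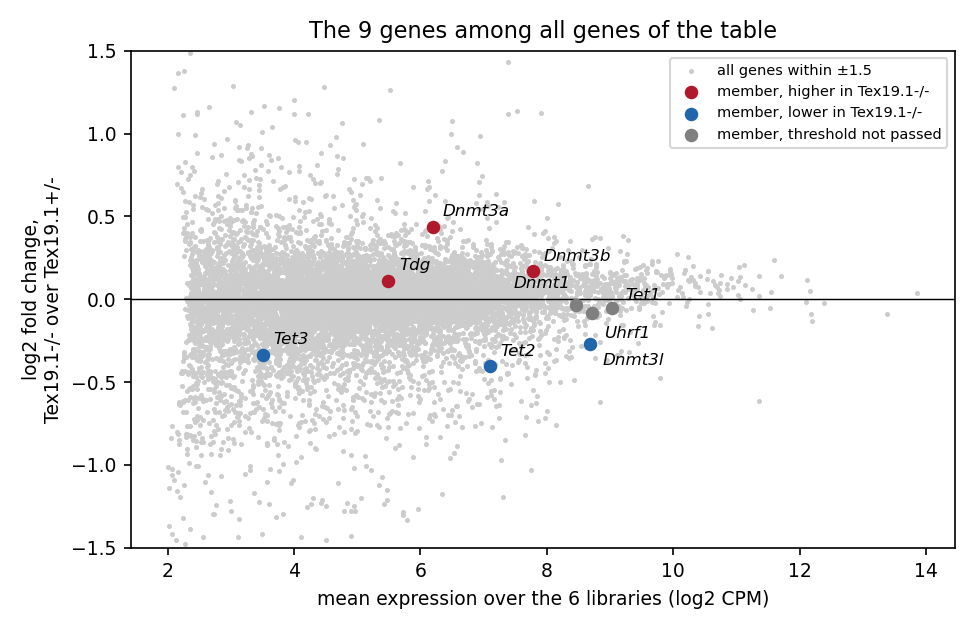
Log2 fold change, Tex19.1-/- over Tex19.1+/-, against mean expression in log2 CPM for all genes of the authors' deposited table (grey), with the 9 members in colour and the 46 genes beyond 1.5 in size outside the axis. Tet2 and Dnmt3l lie towards the lower edge of the genes of their expression level, and Dnmt1, Uhrf1 and Tet1 lie near 0.

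The maintenance pair was expressed at high levels in both genotypes and neither gene passed the threshold. Dnmt1 (ENSMUSG00000004099.16, chromosome 9 from 20907209 to 20959888, minus strand, GRCm38) averaged 351 CPM in the authors' deposited table. Its log2 fold change there was -0.03 (standard error 0.04, adjusted p = 0.475), and the approximate interval of the difference reaches from 7.08% lower to 2.82% higher in Tex19.1-/- cells. Uhrf1 (ENSMUSG00000001228.14, chromosome 17 from 56303321 to 56323486, plus strand) averaged 419 CPM in the authors' deposited table. Its log2 fold change was -0.08 (standard error 0.04, adjusted p = 0.0523) in the authors' deposited table, just outside the threshold, with an approximate interval from 10.4% to 0.65% lower. With the median of all genes subtracted Uhrf1 passed as lower (adjusted p = 0.0436), and also with the median of its 40 neighbours within 5 Mb subtracted (-0.16, adjusted p = 0.000121), a median of 0.07; over all alternative settings its adjusted p ran from 0.000121 to 1, the highest under Bonferroni adjustment. A processed copy, Gm5648, matches Uhrf1 transcripts over 1590 bases at 98.3% identity, so reads may have been shared between them; Gm5648 was not analysed here.

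The de novo genes went both ways, with the catalytic genes higher and their cofactor lower. Dnmt3a (ENSMUSG00000020661.15, chromosome 12 from 3806007 to 3914443, plus strand) averaged 73.2 CPM and had a log2 fold change of 0.44 (standard error 0.04, adjusted p = 2.5e-23) in the authors' deposited table. Split by that fold change, with the mean taken as the average of the genotypes, its level corresponds to 84.2 CPM in Tex19.1-/- cells and 62.2 CPM in Tex19.1+/- cells, a level 35.5% higher (approximate interval 27.8% to 43.6%). Of the genes nearest to it in mean expression, 6.98% had a change at least as large in size. Dnmt3b (ENSMUSG00000027478.15, chromosome 2 from 153649450 to 153687730, plus strand), averaged 220 CPM and had a log2 fold change of 0.17 (standard error 0.05, adjusted p = 0.00407) in the authors' deposited table. This corresponds to 233 CPM in Tex19.1-/- cells and 207 CPM in Tex19.1+/- cells, 12.4% higher (approximate interval 4.58% to 20.9%). Dnmt3c, a rodent copy of Dnmt3b that acts in male germ cells, matches it over 1655 bases at 93.3% identity; Dnmt3c was not analysed here.

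Dnmt3l (ENSMUSG00000000730.13, chromosome 10 from 78041947 to 78063622, plus strand) averaged 413 CPM, with a log2 fold change of -0.27 (standard error 0.04, adjusted p = 4.88e-09) in the authors' deposited table. The derived levels were 375 CPM in Tex19.1-/- cells and 451 CPM in Tex19.1+/- cells, 17.0% lower (approximate interval 21.8% to 11.9% lower). Since the cofactor fell where the enzymes rose, the ratio of Dnmt3l to Dnmt3a per kb of exon was 24.8 in Tex19.1-/- cells and 40.5 in Tex19.1+/- cells, and that of Dnmt3l to Dnmt3b was 2.75 in Tex19.1-/- cells and 3.73 in Tex19.1+/- cells. By the longest transcript the ratio of Dnmt3l to Dnmt3b was 3.82 in Tex19.1-/- cells and 5.17 in Tex19.1+/- cells. These ratios are derived from the fold changes and were not tested themselves. As an alternative to the authors' test, the median fold change of genes with similar expression was subtracted from that of each gene. What remained was set against the spread of those genes, by which 6.21% of all genes passed. Dnmt3l passed in this way (-0.33, adjusted p = 0.049), while Dnmt3a (0.42, adjusted p = 0.0728) and Dnmt3b (0.14, adjusted p = 0.854) did not. The subtraction made the change of Dnmt3l larger in size and those of Dnmt3a and Dnmt3b smaller. Before it, 8.97% of the genes nearest to Dnmt3l in expression changed at least as much in size, beside 6.98% for Dnmt3a. The adjusted p of Dnmt3a ran from 1.41e-29 to 0.0728 over the alternative settings, that of Dnmt3b from 0.00197 to 1 (under Bonferroni adjustment), and that of Dnmt3l from 2.87e-11 to 0.049.

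Of the dioxygenase genes, the most abundant did not pass the threshold and the other two were lower. Tet1 (ENSMUSG00000047146.17, chromosome 10 from 62804570 to 62908996, minus strand) averaged 526 CPM, with a log2 fold change of -0.05 (standard error 0.04, adjusted p = 0.26) in the authors' deposited table. The approximate interval of Tet1 runs from 8.85% lower to 1.74% higher in Tex19.1-/- cells. Tet2 (ENSMUSG00000040943.12, chromosome 3 from 133463679 to 133545139, minus strand) averaged 138 CPM and fell, with a log2 fold change of -0.40 (standard error 0.04, adjusted p = 1.82e-27) in the authors' deposited table, the smallest p of the 9. Its derived levels were 119 CPM in Tex19.1-/- cells and 157 CPM in Tex19.1+/- cells, 24.4% lower (approximate interval 28.0% to 20.6% lower). Tet2 stayed past the threshold in all 7 alternative settings, also against genes of similar expression (adjusted p = 0.0263, the highest of the 7).

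Tet3 (ENSMUSG00000034832.15, chromosome 6 from 83362373 to 83459084, minus strand) was the least abundant member at 11.4 CPM, and only 18.4% of the genes of the table had lower means. It fell with a log2 fold change of -0.34 (standard error 0.07, adjusted p = 1.41e-06) in the authors' deposited table. The derived levels were 10.1 CPM in Tex19.1-/- cells and 12.8 CPM in Tex19.1+/- cells, 20.7% lower (approximate interval 27.5% to 13.4% lower). Genes of low expression vary more: 23.3% of the genes nearest in expression changed at least as much, and against their spread Tet3 did not pass (adjusted p = 0.71; range over the alternative settings 1.11e-06 to 0.71). As a sum per kb of exon, the dioxygenase genes gave 41.0 in Tex19.1-/- cells and 44.7 in Tex19.1+/- cells. Of this sum Tet1 made up 81.4% in Tex19.1-/- cells and 77.5% in Tex19.1+/- cells. The share depends on the length used: by the longest transcript it was 72.2% in Tex19.1-/- cells and 67.2% in Tex19.1+/- cells.

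Tdg, whose product starts the repair that completes demethylation, was slightly higher. Tdg (ENSMUSG00000034674.18, chromosome 10 from 82629828 to 82650799, plus strand) averaged 45.1 CPM and had a log2 fold change of 0.11 (standard error 0.04, adjusted p = 0.0199) in the authors' deposited table. The derived levels were 46.8 CPM in Tex19.1-/- cells and 43.4 CPM in Tex19.1+/- cells, 8.03% higher (approximate interval 1.95% to 14.5%). The call ended with the median of 118 neighbours within 5 Mb subtracted (0.08, adjusted p = 0.0867), at a threshold of 0.01, under Bonferroni adjustment (adjusted p = 1) and against genes of similar expression (adjusted p = 0.992). The processed copies Tdg-ps, Gm9855 and Gm5597 match Tdg transcripts at 98.7%, 99.2% and 99.3% identity over 2968, 1194 and 1193 bases, so its reads may have been split; none of these copies was analysed here.

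Levels of different genes were compared per kb of exon, and the values depend on the transcript length chosen. Dnmt3l was the most abundant member at 138 CPM per kb, followed by Uhrf1 at 98.4, Dnmt1 at 47.6, Dnmt3b at 43.0 and Tet1 at 34.0. Tdg at 8.39 CPM per kb and Tet2 at 8.16 came next and changed places when the longest transcript was used as the length (12.9 for Tdg and 15.0 for Tet2). Dnmt3a followed at 4.40 CPM per kb and Tet3 at 0.68. Without values per library it cannot be said which neighbours in this order differ beyond their spread. Derived from the fold changes, Tdg stood at 8.72 CPM per kb in Tex19.1-/- cells and 8.07 in Tex19.1+/- cells, and Tet2 at 7.03 CPM per kb in Tex19.1-/- cells and 9.29 in Tex19.1+/- cells, so this pair stood in opposite order in the genotypes; the order was not tested. Dnmt3b was far above Dnmt3a in both genotypes. The ratio of Dnmt3a to Dnmt3b per kb of exon was 0.11 in Tex19.1-/- cells and 0.092 in Tex19.1+/- cells. By the longest transcript this ratio was 0.16 in Tex19.1-/- cells and 0.13 in Tex19.1+/- cells. The summed level of Dnmt3a and Dnmt3b was 50.6 CPM per kb of exon in Tex19.1-/- cells and 44.2 in Tex19.1+/- cells.

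**Figure D3:**
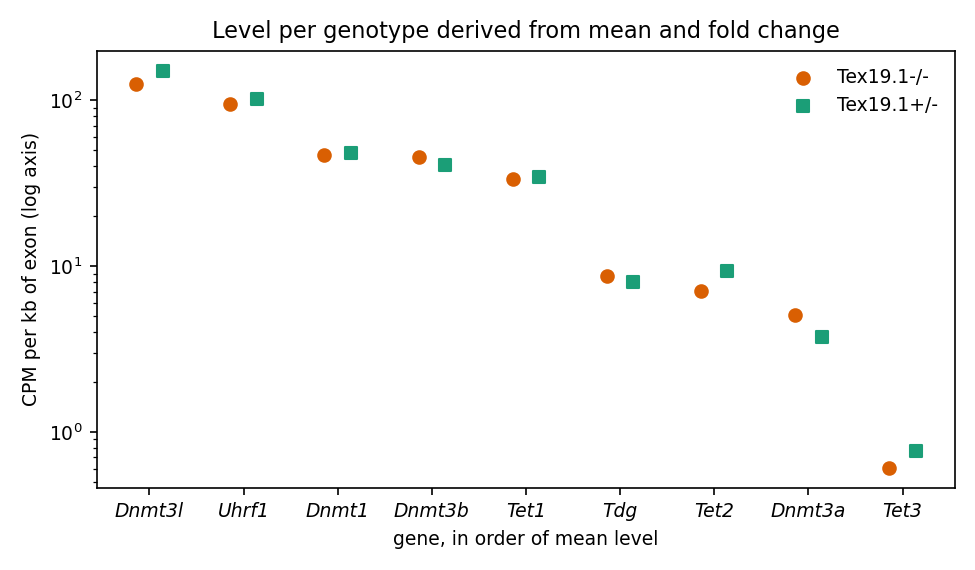
Level of each gene in CPM per kb of exon (log axis), in Tex19.1-/- cells (circles, left) and Tex19.1+/- cells (squares, right), derived from the mean and the fold change of the authors' deposited table; there are no values per library and hence no error bars. The genes run from Dnmt3l at 138 to Tet3 at 0.68 on average, and the symbols of Tet2 and Tdg lie in opposite order in the genotypes.

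The genomic surroundings of the called members were examined because genes that lie close together can shift as a block. Within 5 Mb of Dnmt3a the 20 measured neighbours had a median log2 fold change of -0.03, beside 0.44 for Dnmt3a itself. Of these neighbours 3 were higher and 6 lower. A shift shared by a region was not tested for any member. The median around Dnmt3b was -0.01 over 95 neighbours, around Tet2 0.01 over 34, around Tet3 -0.02 over 53 and around Dnmt3l 0.04 over 130. Subtracting these medians ended no call of Dnmt3a, Dnmt3b, Dnmt3l, Tet2 or Tet3. The nearest measured neighbour of Dnmt3l, Aire, which encodes a transcription factor known from the thymus, fell further, with a log2 fold change of -0.72 (adjusted p = 3.32e-42) at 44.6 CPM in the authors' deposited table. Aire lies on the opposite strand, its 5′ part overlaps that of Dnmt3l and the annotated exons of both share 67 bases, so reads there can be told apart only by strand; which strand setting the counting used is not given in the sources used here. On the same side, beyond Aire, Pfkl was higher at 0.16, and on the other side of Dnmt3l its nearest measured neighbour Icosl was higher at 0.14 in the authors' deposited table. Exons of other members also overlap genes on the opposite strand, none of which had a row. Tdg shares 367 bases with Glt8d2, Dnmt3a 133 with Dnmt3aos and Tet2 43 with Gm42567, so reads there too can be told apart only by strand.

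The nearest measured genes on each side of the other members were higher beside some and lower beside others, and most did not pass. Beside Dnmt3a, Dtnb was higher at 0.19 and Efr3b lower at -0.30 in the authors' deposited table. Beside Dnmt3b, neither Commd7 at -0.06 nor Mapre1 at 0.04 passed in the authors' deposited table. Beside Tet2, neither Ppa2 at 0.07 nor Cenpe at -0.08 passed, though Arhgef38 and Bdh2, the next genes out, were lower at -0.47 and -0.36 in the authors' deposited table. Tet3 lies between Bola3 at 0.04 and Dguok at 0.12, neither of which passed, and the next genes out, Mob1a at -0.24 and Stambp at -0.25, were lower in the authors' deposited table. Among those beside Tet1, Ccar1 at 0.05 and Slc25a16 at -0.09, and beside Tdg, Zfp938 at 0.00 and Hcfc2 at -0.14, none passed in the authors' deposited table. Beside Dnmt1, S1pr2 was lower at -0.38 and Eif3g at 0.06 did not pass, and beside Uhrf1 both Plin3 at 0.20 and Kdm4b at 0.13 were higher in the authors' deposited table.

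**Figure D4:**
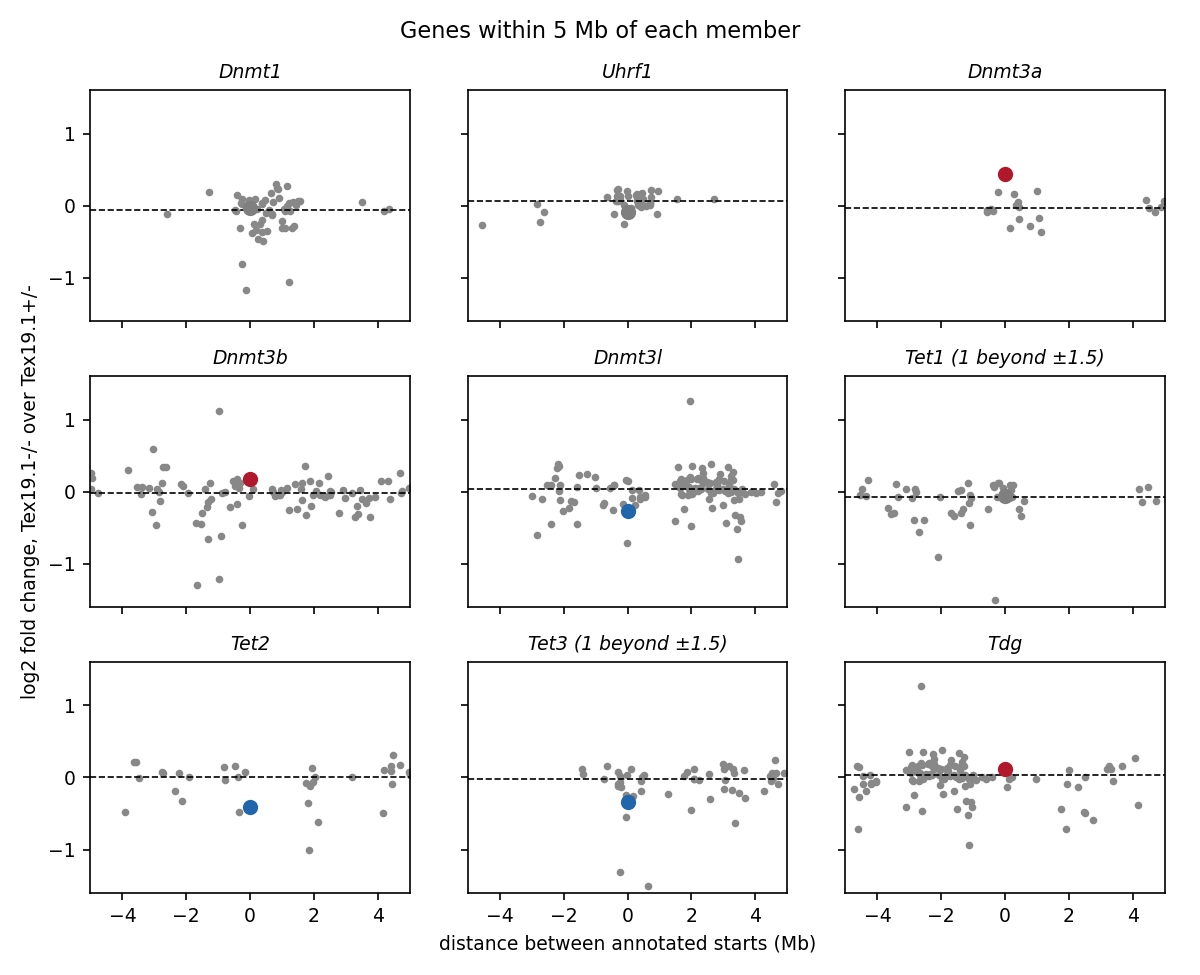
Log2 fold change, Tex19.1-/- over Tex19.1+/-, of the measured genes within 5 Mb of each member (grey) against the distance between annotated starts, with the member at 0 in colour (red higher, blue lower, grey threshold not passed) and the median of its neighbours as a dashed line; values beyond 1.5 in size are drawn at the limit. Dnmt3a lies above all its plotted neighbours and the dashed lines stay between -0.07 and 0.07.

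The partners of these enzymes were read from lists, by their counts beside the 51.7% of all genes that passed and the median of 0.00 over all genes. Of 17 maintenance partners 6 were higher and 3 lower, with a median of 0.01. The smallest p-values belonged to Pcna, the replication clamp that brings DNMT1 to new DNA, at 0.68, Cdca7l at 0.50, the H3K9 methyltransferase gene Ehmt2 at -0.42 and the lysine methyltransferase gene Setd7 at 0.25 in the authors' deposited table. The 53 neighbours of Pcna within 5 Mb had a median of 0.15, above that of all genes. Of 26 S phase genes, which rise and fall with Dnmt1 and Uhrf1 in cycling cells, 9 were higher and 3 lower, with a median of 0.05; after Pcna they were led by Rrm2 at -0.25, Chaf1b at 0.19 and Rfc4 at 0.20 in the authors' deposited table.

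Of 17 partners of de novo methylation 6 were higher and 6 lower, with a median of -0.05. Kdm2b, which keeps CpG islands unmethylated, was at -0.41, Ehmt2, also on this list, at -0.42, Qser1, which in human ES cells guards CpG-rich valleys against DNMT3 enzymes, at 0.29, and Trim28, the KAP1 corepressor gene, at 0.21 in the authors' deposited table. Of 20 TET partners 9 were higher and 4 lower, with a median of 0.07. They were led by Gadd45g, a stress gene linked to active demethylation, at 1.29, the deacetylase gene Sirt1 at -0.34, the pluripotency factor gene Tfcp2l1 at -0.25 and the corepressor gene Sin3a at 0.19 in the authors' deposited table. Of 15 readers, proteins that bind methylated or unmethylated CpGs, 2 were higher and 5 lower, with a median of -0.10. The leading readers were Kdm2b, Mbd2, a methyl-CpG binding repressor, at -0.49, Zbtb38 at -0.26 and Klf4 at -0.20 in the authors' deposited table.

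Downstream of TDG, 9 of 23 repair genes were higher and 2 lower, with a median of 0.08. Apex1, the endonuclease that cuts the abasic site left by TDG, was at 0.27, the ligase gene Lig3 at 0.20, the glycosylase gene Nthl1 at -0.32 and the TDG modifier gene Sumo2 at 0.15 in the authors' deposited table. Of 24 genes that supply the methyl donor 10 were higher and 5 lower, with a median of 0.07. The threonine and glycine enzyme genes Tdh and Gldc stood at 0.37 and 0.49, the serine enzyme gene Shmt2 at -0.41 and the adenosine kinase gene Adk at 0.35 in the authors' deposited table. Of 22 genes around the TET cofactors 2-oxoglutarate and vitamin C 8 were higher and 4 lower, with a median of 0.03. The vitamin C transporter gene Slc23a2 was at 0.53, the glutamate dehydrogenase gene Glud1 at -0.37 and the fumarase gene Fh1 at 0.19 in the authors' deposited table.

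Germline genes known to be silenced by promoter methylation and imprinted genes were read in the same way, and 57.9% of the measured germline genes and 76.9% of the imprinted genes passed, beside the 51.7% of all genes. Of 19 measured germline genes 8 were lower, 3 of them at least 2-fold, and 3 higher, with a median of -0.15. The higher genes were Tdrd12 at 0.75, Tuba3a at 0.62 and Zfp42 at 0.36 in the authors' deposited table. Zfp42, at a mean of 420 CPM, is also counted as a naive marker below. The authors' deposited table gives -1.94 for Stra8, which starts meiosis, -1.23 for the piRNA gene Piwil2, and -1.20 and -0.77 for the meiotic genes Hormad1 and Stag3. The 50 neighbours of Piwil2 within 5 Mb had a median of -0.61. The other 18 of the 37 listed germline genes had no row. Of 26 imprinted genes 13 were higher and 7 lower, with a median of 0.11. The smallest p-values belonged to Mest at 4.91, Impact at 1.12, Cdkn1c at -1.27 and H13 at -1.21 in the authors' deposited table. DNA methylation itself was not measured.

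Markers of cell state differed between the genotypes as well. All 12 measured endoderm markers were lower, with a median of -2.05 and a summed derived level of 813 CPM in Tex19.1-/- cells and 1455 CPM in Tex19.1+/- cells; the smallest p-values belonged to the collagen genes Col4a1 at -2.01 and Col4a2 at -2.23, Cubn at -2.93 and Srgn at -2.89 in the authors' deposited table. Of the 14 listed endoderm markers, Sox17 and Foxa2 had no row. The lowest mean with a row was 3.52 CPM, and some markers lay below this level in Tex19.1-/- cells only. Derived levels were 2.45 CPM in Tex19.1-/- cells and 12.3 CPM in Tex19.1+/- cells for Gata6, and 2.01 CPM and 14.9 CPM for Srgn. How far a filter on low expression shaped the shared direction was not tested. Of 12 formative or primed epiblast markers 8 were higher and 3 lower, with a median of 0.52 and a summed level of 538 CPM in Tex19.1-/- cells and 505 CPM in Tex19.1+/- cells. Zic2 stood at 0.58, Sox4 at 0.73, Cdh2 at 1.04 and Otx2 at 1.12 in the authors' deposited table, and the marker Fgf5 had no row. Of 16 naive markers 7 were higher and 7 lower, with a median of 0.00. Klf5 and Tbx3 were at -0.71 and -0.37, Fbxo15 at 0.46 and Zfp42 at 0.36 in the authors' deposited table. The 13 neighbours of Klf5 within 5 Mb had a median of -0.58, and the 20 neighbours of Zic2 had one of -0.59. Of 9 fibroblast or feeder markers 3 had a row, Fbn1 at -0.76, Vim at -0.33 and Fn1 at 0.23 in the authors' deposited table, and Col1a1, Col1a2, Col3a1, Thy1, Lum and Dcn had none. In these bulk libraries fewer cells of a type and less RNA per cell cannot be told apart, and the part of these cell states in the values of Dnmt3a, Dnmt3b, Dnmt3l, Tet2 and Tet3 was not tested.

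**Figure D5:**
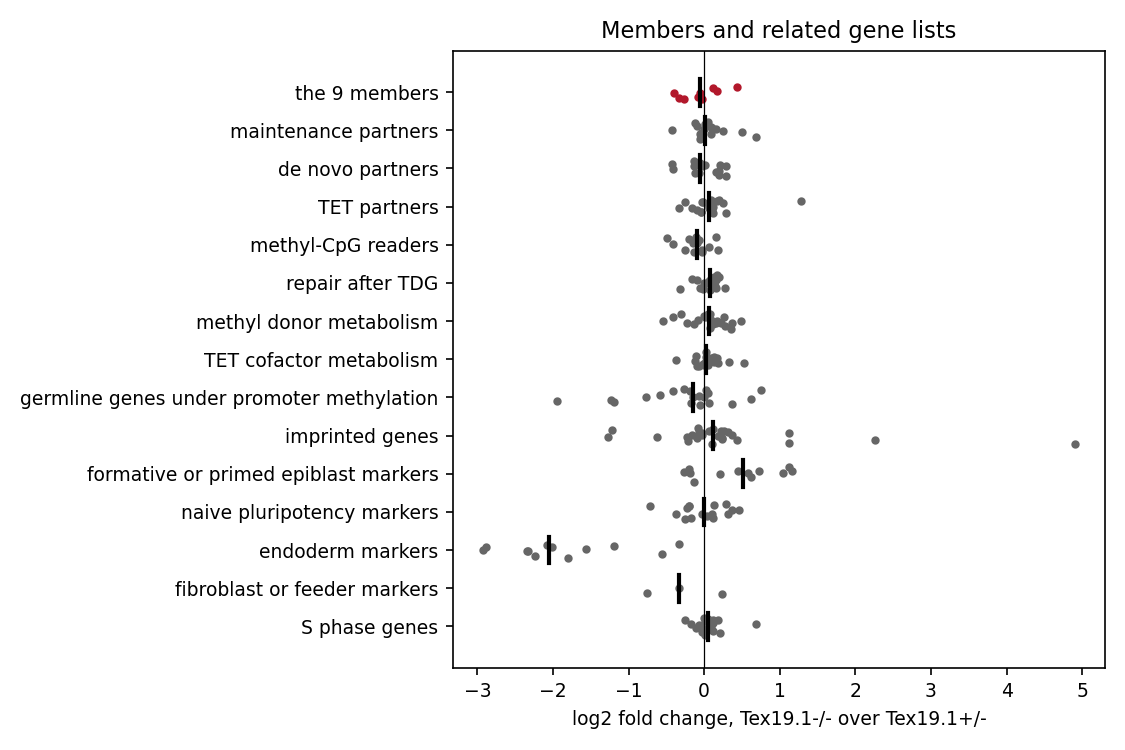
Log2 fold changes, Tex19.1-/- over Tex19.1+/-, in the authors' deposited table for the 9 members (red) and the related lists (grey), a point per gene with vertical jitter and a black bar at each median. The endoderm markers lie lowest with a median of -2.05 and the formative or primed epiblast markers highest with 0.52, while the other bars lie between -0.33 and 0.11.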

How the data were processed

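RNA of 3 Tex19.1-/- and 3 Tex19.1+/- libraries was made into stranded mRNA libraries and sequenced in pairs, per the labels' protocols. The build mm10 and the tools HTSeq 0.11.2, TopHat2 2.1.0, Trim Galore 0.4.1 and edgeR are named in the submitters' processing notes; not given in the sources used here are the annotation, the low-count filter and the form of the edgeR test. The deposited values, per the file headers, are for each of 10128 genes a p-value, an adjusted p (false discovery rate), a mean log2 CPM and a log2 fold change, with a lowest mean of 3.52 CPM; precision rests on these p-values, since the depth is unknown.

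From these values were computed, with Python 3.11.15, scipy 1.17.1 and statsmodels 0.14.6, the CPM, the standard error implied by the fold change and the normal z of the p-value, and the level per genotype, taking the mean as the average of the genotypes. The planned count model could not be used without counts per library. Positions and exon lengths come from GENCODE M21 (GRCm38): 9587 symbols matched directly, 135 through older symbols, and 406 did not match. Transcript matches of at least 300 bases and 90% identity were sought with BLAST 2.17.0. The members and lists were chosen with earlier results of these data known. Named are all members, their nearest measured neighbours on each side (the next ones out beside Dnmt3l, Tet2 and Tet3 were added after their values were seen), Tex19.1 and up to 4 genes per list by smallest p, of which 1 is not reported here; Pou5f1, Nanog, Sox2 and genes without a row are named in addition. Alternatives were a threshold of 0.01, Bonferroni adjustment, genes of at least 16 CPM, and the spread among genes of similar expression. For that spread their median fold change was subtracted and the scaled median absolute deviation of their fold changes was used. Further alternatives were subtraction of the median of all genes, of neighbours within 5 Mb or of a lowess trend (span 0.3) on GC content and length. The computations were tested on simulated data.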

Additional observations from a re-analysis of the deposited data

How the results depend on the processing

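The count of 3 members higher became 1 under Bonferroni adjustment (Dnmt3a) and 0 against the spread of genes of similar expression. The count of 3 lower became 2 against that spread and 2 among genes of at least 16 CPM, where Tet3 is not tested by construction. Of 62 values of single members under the alternatives, 49 kept their side of the threshold and their direction, 8 no longer passed and 2 (both Uhrf1) newly passed. The other 3, of genes that passed in neither setting, changed sign: Dnmt1 at 0.018 and Tet1 at 0.020 with the neighbours' median subtracted, and Tet1 at 0.024 with the GC and length trend subtracted. 0 of the values that changed sign passed. The spread of genes of similar expression calls 6.21% of all genes, against 51.7% by the authors' p-values. That setting scales each change by the changes of other genes, many of which passed by the authors' p-values. By construction it asks whether a gene stands out among such genes, not whether the genotypes differ. Other reasons for the difference were not tested. With the longest transcript as length 7 of the 9 genes kept their place in the order of levels. No paired analysis was possible because the table holds no value per library, and for the same reason leaving out each replicate was not run. Changes of a few percent, as for Tdg and Uhrf1, lie at the limit of what these p-values resolve.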

Other observations

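Dnmt3b had a larger implied standard error than most genes of its level. This value is computed back from the p-value and is not a measured spread between libraries. The standard error implied by the authors' deposited table was 0.053 for Dnmt3b, against a median of 0.037 among the genes nearest in expression, and 1.66% of those genes had one at least as large. For Dnmt3l it was 0.044 against a median of 0.038, with 6.98% of genes at least as large, and for Tet2 0.036 against 0.037, with 75.1%.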
